A study of Mus musculus with 10 samples.

Results

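H3K27me3, the trimethylated form of lysine 27 on histone H3, was compared between alternatively (M2) and classically (M1) stimulated wild-type mouse macrophages. The comparison takes 4 of the 10 libraries of the series: 2 WT M2 libraries and 2 WT M1 libraries, chosen by their labelled genotype and treatment, with autosomes 1 to 19 only. The cells were bone marrow-derived macrophages of C57BL/6 mice, grown for 7 days in 20 ng/ml M-CSF. All 4 cultures carried the floxed, uncut Eif2ak3 fl/fl allele of the PERK gene and no Cre, so WT here means floxed. M1 cultures then received 20 ng/ml LPS with 50 ng/ml IFNg for 24 h, and M2 cultures received 20 ng/ml IL-4 for 24 h. Other libraries serve only for reading results back. They are 2 M1 and 2 M2 libraries of KO macrophages, which are Eif2ak3 fl/fl x LysMcre (Cre from the lysozyme M gene, active in myeloid cells), and 1 unstimulated M0 library of each genotype. The design text calls the M1 and M2 libraries biological replicates.

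H3K27me3 is laid down by Polycomb repressive complex 2, whose catalytic subunit is Ezh2 or Ezh1, and is read by the Cbx subunits of Polycomb repressive complex 1. It marks silent genes, often in broad domains, and is commonly absent from the bodies of active genes. LPS with IFNg drives macrophages through NF-kappa B and interferon signalling towards inflammatory genes such as Nos2, the inducible nitric oxide synthase. IL-4 acts through STAT6 towards genes such as Arg1, Retnla and Egr2.

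The 4 libraries held 17.6 to 20.9 megatags, and 41.3% to 56.5% of the tags lay in called regions, counted over the whole genome with X. WT M1 had 216.1 and 240.1 Mb of autosome under regions and WT M2 had 179.04 and 250.1 Mb. The M1 values thus lay between the M2 values, with M2 replicate 1 the lowest of the 4. The mean was 228 ± 17.0 Mb (SD, n = 2) in M1 and 215 ± 50.2 Mb (SD, n = 2) in M2, and an exact two-sided permutation test gave p = 1, where 2 libraries against 2 cannot give less than 0.333. Without M2 replicate 1 the difference turned from -13.5 Mb to 22.01 Mb. Both replicate 1 libraries also stood apart on the X chromosome, with 31.3 Mb called in M1 and 52.9 Mb in M2 against at most 0.990 Mb in the other 8. Of their normalised tags in regions, 9.43% in M1 and 18.0% in M2 lay on X, against 0.335% and 0.346% in the replicate 2 libraries. The X is outside the comparison, and the part of this difference in the results was not tested. Libraries of one state did not resemble each other more than libraries of different states. The shared called length over the joint called length (Jaccard index, 1 kb bins) was 0.661 between the M1 libraries and 0.601 between the M2 libraries, against 0.609 to 0.685 across states.

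Macrophage identity genes were largely free of called regions in both states. None of 24 macrophage identity genes, which include the lineage factor Spi1 and the M-CSF receptor Csf1r, was covered over 50% of its body in any of the 4 libraries, and 22 of the 24 were at 0% in all 4. None of 18 housekeeping genes was covered, while 36 of 39 Hox genes, which encode factors that pattern the embryo, were covered in all 4. Of 24 lymphoid marker genes, 9 were covered in all 4 libraries, among them Cd3e and Cd8a. Of 23 granulocyte, erythroid and dendritic markers, 5, 7, 4 and 9 were covered in M1 replicates 1 and 2 and M2 replicates 1 and 2. For 20 stromal and epithelial markers the counts were 5, 5, 1 and 7 in the same order, lowest again in M2 replicate 1. Many markers of other cells were also covered in none of the 4 libraries. These were 10 lymphoid, 14 granulocyte, erythroid and dendritic, and 12 stromal and epithelial markers. Low cover alone therefore does not mark a cell type, and no other cell type was compared.

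A small part of the called genome separated the states. Of 313789 kb called in any of the 4 libraries, 140614 kb (44.8%) were called in all 4. Both M2 libraries and no M1 library called 4257 kb (1.36%), and both M1 libraries and no M2 library called 7140 kb (2.28%). These state-only kb were scattered, in 3321 M2-only and 5409 M1-only runs, of which 79.1% and 75.5% were 1 kb long. Only 19 M2-only and 27 M1-only runs reached 5 kb. The signal in them had a median of 14.0 normalised tags per kb (tags scaled to 10 megatags) in the M2 libraries over M2-only kb and 13.9 in the M1 libraries over M1-only kb, against 14.5 over the 173175 kb called in 1 to 3 libraries and 20.6 over kb called in all 4. Of the M2-only kb, 49.8% lay within 5 kb of a kb called in all 4, and of the M1-only kb 53.6%, against 53.0% of the kb called in 1 to 3 libraries. Gene bodies held 34.8% and 37.2% of them, against 38.2%. Counts that rest on 3 libraries are larger by construction: leaving out M1 replicate 1, M1 replicate 2, M2 replicate 1 or M2 replicate 2 gave 11620, 13045, 32641 or 10667 M2-only kb and 32554, 20289, 11189 or 36880 M1-only kb. With the 50% of regions of highest score the counts were 11733 and 11956 kb.

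Gene bodies that crossed 50% cover between the states were few, and Nos2 and Socs3 stood among them. A protein-coding gene was called when at least 50% of its body was covered in both libraries of one state and in neither of the other. Of 3643 genes covered in any of the 4 libraries, 10 were M2-only (0.274%) and 42 M1-only (1.15%). The M2-only genes were Nos2, Rxfp4, Socs3, Hrg, Hapln3, Mtnr1b, Tekt5, Zmynd12, 4933402D24Rik and Ptprn. Some crossed it narrowly: Ptprn was 44.0% and 48.7% covered in M1 and 51.7% and 56.9% in M2. A wider rule asked only that the lowest library of one state exceed the highest of the other by at least 20 percentage points. It found 14 genes higher in M2 (0.184% of 7596 with any cover) and 45 higher in M1 (0.592%). Leaving out M1 replicate 1, M1 replicate 2, M2 replicate 1 or M2 replicate 2 gave 55, 52, 290 or 25 M2-only genes and 158, 107, 58 or 486 M1-only genes. With the 50% of regions of highest score the counts were 126 and 161.

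Nos2 (chromosome 11, 78920787 to 78960226, mm10) makes nitric oxide in LPS- and IFNg-treated macrophages. Its body was 5.73% and 0% covered in the M1 libraries and 82.2% and 92.0% in the M2 libraries. In M2 a single region ran over most of the gene, from 78922898 to 78955327 in replicate 1 and from 78921744 to 78958036 in replicate 2. Their density was 20.3 and 33.2 normalised tags per kb. In M1 replicate 1 only 2 short regions of 1.26 and 1 kb remained within it, and M1 replicate 2 had none. The mean cover was 2.87% ± 4.05 (SD, n = 2) in M1 and 87.1% ± 6.93 (SD, n = 2) in M2, so the groups lay far apart. In bulk libraries, fewer cells with the mark and less of the mark per cell cannot be told apart. The difference of 84.3 percentage points ranged from 79.4 to 89.2 when single libraries were left out. KO macrophages, not used to choose the gene, had 7.74% and 14.0% in M1 and 91.9% and 92.02% in M2. The M0 libraries had 89.6% in WT and 92.8% in KO, close to the M2 values.

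**Figure D1:**
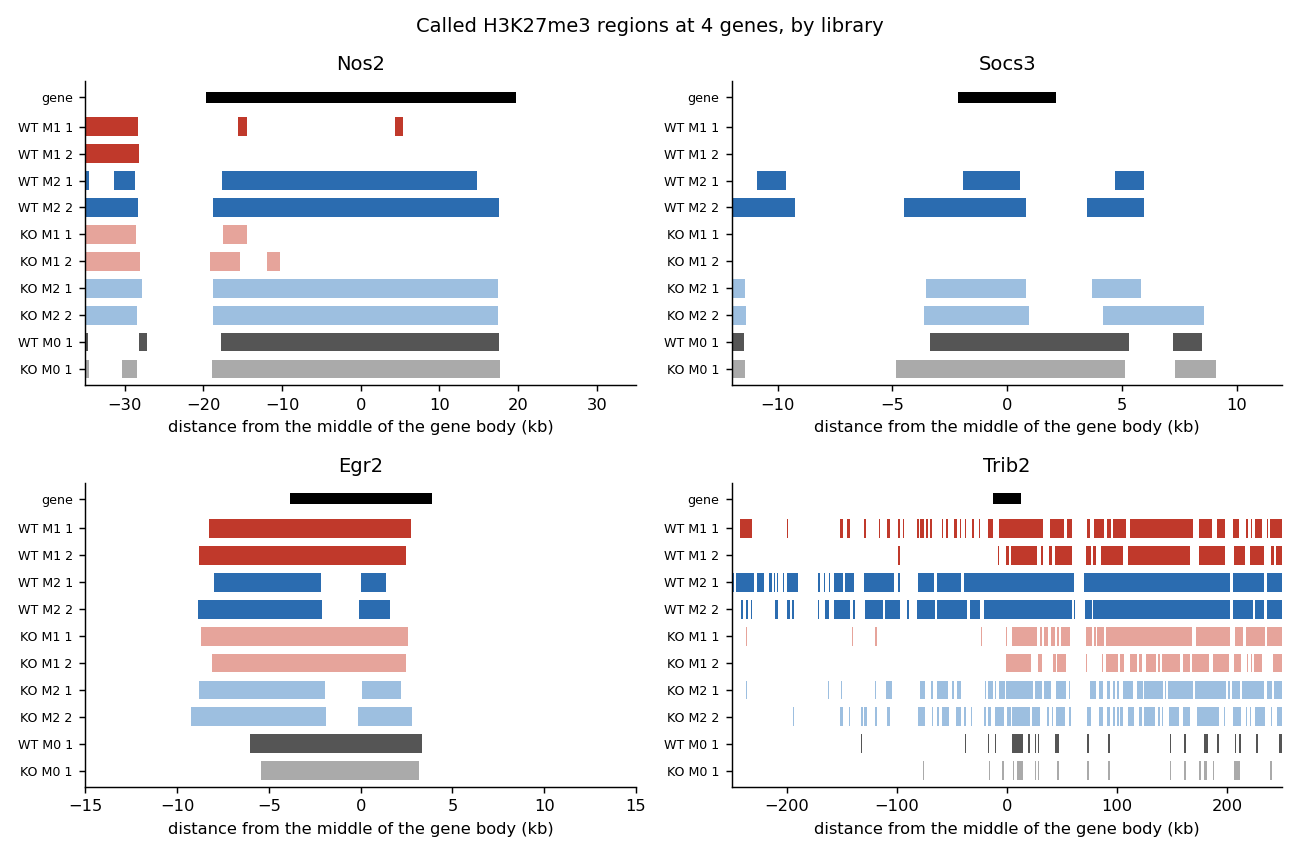
Called H3K27me3 regions at Nos2, Socs3, Egr2 and Trib2 in all 10 libraries, by distance from the middle of the gene body in kb; the black bar is the gene and each coloured bar a called region. The Nos2 domain fills the gene in the M2 and M0 libraries and is missing from the M1 libraries. In M2 the region over Socs3 stops short of the gene's right-hand end, and a separate region lies beyond that end. Egr2 has a gap in its body in M2, and the left side of Trib2 is filled mainly in WT M2.

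Of the 45 measured genes of the LPS and interferon-gamma response list, Nos2 and Socs3 were the only ones with a body cover gap of 20 points or more, both higher in M2. The median difference over the 20 listed genes with any cover was 0.07 percentage points, against -0.13 over all 7596. Of the 45, 25 were at 0% in all 4 libraries, among them the cytokines Tnf and Il6, the chemokine Cxcl10 and the factor Irf1. Csf2 and Edn1, which encode GM-CSF and endothelin, were 100% covered in all 4 libraries, and Il12a and Ciita at least 50% in each.

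Socs3 (chromosome 11, 117966079 to 117970336) encodes a feedback inhibitor of cytokine receptors that signal through STAT3. Its body was 0% covered in both M1 libraries and 57.8% and 69.5% covered in the M2 libraries, a mean of 63.7% ± 8.27 (SD, n = 2). KO macrophages had 0% and 0% in M1 and 68.9% and 71.9% in M2. Both M0 libraries were at 100%, so the M2 cover was also below M0. What M2 kept within the gene lay over its 3′ side, in regions of 2.46 and 5.32 kb at 14.4 and 20.9 normalised tags per kb. A separate region of 1.27 or 2.49 kb lay upstream of the gene in M2, beginning at 117972893 in replicate 1 and 117971679 in replicate 2. The window 1 kb either side of the start was 20.0% and 33.7% covered in M2 and 0% in M1. These are weak regions: with the 50% of regions of highest score the difference at Socs3 was 0. Of the 28 cytokine feedback genes, Socs3 was the only one with a gap of 20 points, 22 were at 0% in all 4 libraries, and Socs2, Spry1 and Spry4 were covered in all 4. The median difference over the 6 feedback genes with any cover was 5.26 points.

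Receptor genes of the inhibitory and danger receptor list differed in both directions. Adora2a (chromosome 10, 75316877 to 75334792) encodes the adenosine A2a receptor, which raises cyclic AMP and dampens inflammation. It was 55.6% and 62.7% covered in M1 and 100% and 100% in M2. In M1 the stretch held 3 separate regions, whereas in M2 a single region of 30.4 or 31.5 kb spanned the gene. KO macrophages had 55.02% and 62.4% in M1 and 100% and 100% in M2, and M0 had 80.9% and 80.99%. Fpr3 (chromosome 17, 17970458 to 17971677), of the formyl peptide receptor family, was 100% covered in both M1 libraries and 63.5% and 70.2% in M2. The KO M1 libraries were at 100%, and the KO M2 and both M0 libraries at 0%. Ltb4r1, a receptor of leukotriene B4, was 60.02% and 64.8% covered in M1 and 0% and 49.7% in M2. Of 37 listed receptor genes, 26 were at 0% in all 4 libraries, and the median difference over the 11 with any cover was -10.3 points.

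Among 39 measured IL-4 response genes, Egr2 was the only one with a body cover gap of 20 points, and it was lower in M2. Egr2 (chromosome 10, 67534469 to 67542188) encodes a zinc finger factor that IL-4 induces in macrophages. Its body was 85.6% and 81.9% covered in M1 and 40.1% and 44.8% in M2, or 83.7% ± 2.61 and 42.4% ± 3.34 (SD, n = 2). In M1 a single region of 11.03 or 11.3 kb covered the start and most of the body. In M2 it was broken: a region of 5.84 or 6.79 kb remained over the start, a second of 1.39 or 1.69 kb lay inside the gene, and the stretch between was free. The density of the region over the start was 22.6 and 35.7 normalised tags per kb in M2, against 29.4 and 26.7 for the single region in M1. KO macrophages had 83.4% and 81.9% in M1 and 52.6% and 63.8% in M2, and M0 had 93.2% and 91.3%. The M0 regions at Egr2 were denser than those of either stimulated state, at 116 and 125 normalised tags per kb. Over all autosomal regions the mean density was 39.9 and 36.3 in M0, and 18.7 to 22.5 in the WT M1 and M2 libraries. With the 50% of regions of highest score the Egr2 difference was 1.50 points rather than -41.3.

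The other IL-4 genes gave no such gap. Of the 39, 18 were at 0% in all 4 libraries, including Arg1, Retnla, Mrc1 and the receptor gene Il4ra. Ccl24, which encodes an eosinophil chemokine, was 100% covered in all 4, and Socs2 was at least 50% covered in each. Some differences rested on 1 library. Ccl22 was 73.02% and 64.4% covered in M1 and 17.5% and 91.2% in M2, and Hbegf, an epidermal growth factor family ligand, was 69.3% and 72.7% covered in M1 and 15.8% and 73.7% in M2. At both genes M2 replicate 1 alone was low. The median difference over the 21 IL-4 genes with any cover was -1.29 points.

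**Figure D2:**
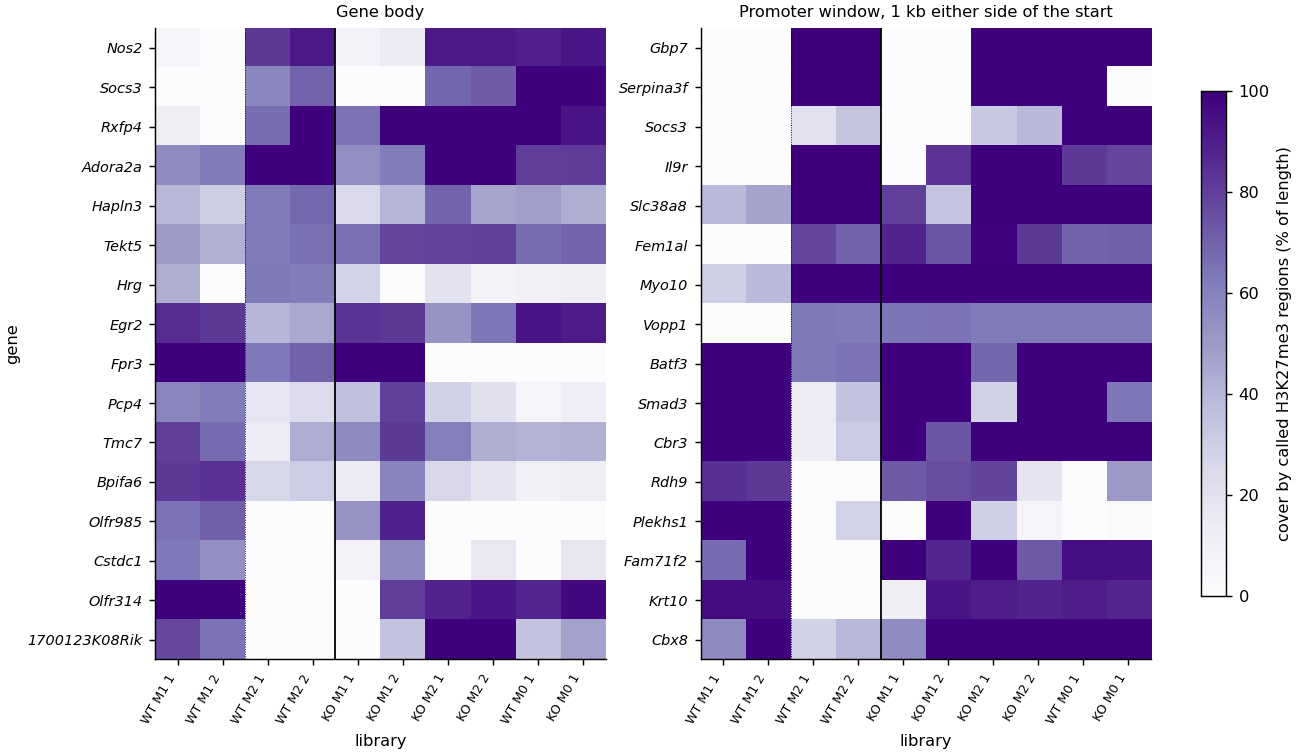
Percent of the gene body (left) and of the window 1 kb either side of the start (right) covered by called regions, for 16 genes each in all 10 libraries; darker means more covered, and the solid line parts the 4 WT libraries compared from the rest. Nos2, Socs3, Adora2a, Gbp7 and Serpina3f follow the state in the KO libraries too, while Olfr314, 1700123K08Rik and Vopp1 do not.

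The 42 M1-only gene bodies included 5 olfactory receptor genes, short genes that lie in clusters and are silent in macrophages, or 11.9% against 2.96% of all 3643 covered genes. The 10 with the largest gap were Olfr314, Olfr9, Olfr1447, 1700123K08Rik, Olfr985, Cstdc1, Olfr983, Ly6g6e, Bpifa6 and Egr2. Olfr9, Olfr314 and Olfr1447 had 100%, 100% and 99.7% mean cover in M1 and 0% in M2. In KO their M2 and M1 libraries overlapped or lay in the other order: Olfr314 was 0% and 80.8% covered in KO M1 and 88.4% and 92.9% in KO M2. Olfr983 overlapped in KO too. Olfr985 kept the WT direction, at 53.3% and 89.3% in KO M1 and 0% in both KO M2 libraries. Longer genes were less covered in M2 over part of their length. Pcp4 (chromosome 16, 96467606 to 96525793), which encodes a calmodulin regulator, was 58.5% and 62.3% covered in M1 and 17.2% and 24.0% in M2. Bpifa6, of a family of secreted lipid-binding proteins, was 82.4% and 84.04% covered in M1 and 26.2% and 30.8% in M2. In KO, Pcp4 was 36.2% and 79.7% covered in M1 and 28.3% and 20.8% in M2. The KO libraries overlapped at Bpifa6, with 14.2% and 58.6% in M1 and 26.0% and 18.6% in M2. Il13, a cytokine gene of the 42 named here after its values were seen, was 61.04% and 65.1% covered in M1 and 16.5% and 45.2% in M2, but 100% in both KO M2 libraries.

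At gene starts, Gbp7 and Serpina3f gave the clearest difference in calls. Of 4335 genes with a window 1 kb either side of the start at least 50% covered in any of the 4 libraries, 18 were M2-only (0.415%) and 57 M1-only (1.31%). By the gap of 20 points the counts were 37 (0.74% of 4997 with any cover) and 92 (1.84%). The Gbp7 window, of an interferon-inducible guanylate-binding protein, was 0% covered in both M1 and 100% in both M2 libraries, and the same in KO. Both M0 libraries were at 100%. A region of 6.40 kb in M2 replicate 1 and 8.43 kb in replicate 2 spanned it, at 13.1 and 20.5 normalised tags per kb. The other guanylate-binding genes Gbp2, Gbp3 and Gbp5 were at 0% in all 4. Serpina3f, a serine protease inhibitor gene, had 0.7% and 0% of its window covered in M1 and 100% in both M2 libraries, with 0.85% and 0% in KO M1 and 100% in both KO M2. Its M0 libraries disagreed, at 100% in WT and 0% in KO. In M1 the Serpina3f start lay in a gap between 2 regions that a single region of 10.5 or 13.04 kb bridged in M2. The bridging region held 16.1 and 17.7 normalised tags per kb, and the M1 regions 15.1 to 17.4. Il9r, of the interleukin-9 receptor, went from 0% to 100%, but was 83.9% covered in KO M1 replicate 2.

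Other starts were more covered in M1. Batf3, an AP-1 family factor, was 100% covered in both M1 libraries and 63.1% and 65.1% in M2, the only one of 25 IL-4 genes with a start and a gap of 20 points. Its KO starts overlapped, at 100% and 100% in M1 and 68.6% and 100% in M2, and over the body it was 32.0% and 24.4% covered in WT M1 and 33.4% and 31.7% in WT M2. Smad3, the signal transducer of TGF-beta, was 100% covered in both M1 libraries and 13.3% and 34.8% in M2. Its KO starts were at 100% and 100% in M1 and 28.3% and 100% in M2. The Smad3 body overlapped between the WT states, at 19.8% and 18.7% in M1 and 6.30% and 22.6% in M2. Cbx8, a Polycomb subunit that binds H3K27me3, was 56.0% and 100% covered in M1 and 28.4% and 39.5% in M2. It was the only M1-only start among 14 genes of the H3K27 methylation machinery, and in KO M2 it was 100% covered in both libraries. The Cbx8 body overlapped between the WT states, at 64.4% and 100% in M1 and 51.1% and 67.2% in M2. Smad3 and Cbx8 are named here after their values were seen, as are the starts of Gbp7, Serpina3f and Il9r.

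The promoters at which these changes were read are given from 250 bases before to 50 after the start, on the gene's strand, as RefSeq lists them on GRCm38.p6 (the mm10 assembly). They show which sequence lay under or beside the edge of the mark in each state. Capitals mark the STAT palindrome TTCNNNGAA, or its form with 4 free bases.
Socs3: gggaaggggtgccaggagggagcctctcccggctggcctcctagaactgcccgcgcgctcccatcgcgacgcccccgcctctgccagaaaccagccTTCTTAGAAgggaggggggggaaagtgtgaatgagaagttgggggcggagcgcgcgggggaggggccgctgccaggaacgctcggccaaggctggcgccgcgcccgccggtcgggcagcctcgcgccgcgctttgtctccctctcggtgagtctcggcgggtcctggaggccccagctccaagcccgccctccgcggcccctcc
Gbp7: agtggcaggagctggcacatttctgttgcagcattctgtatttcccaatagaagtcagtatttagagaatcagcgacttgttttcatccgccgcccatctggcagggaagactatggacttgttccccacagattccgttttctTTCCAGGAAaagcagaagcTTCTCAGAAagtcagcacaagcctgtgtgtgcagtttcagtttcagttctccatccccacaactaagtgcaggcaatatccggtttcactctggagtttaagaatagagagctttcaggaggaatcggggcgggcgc
Serpina3f: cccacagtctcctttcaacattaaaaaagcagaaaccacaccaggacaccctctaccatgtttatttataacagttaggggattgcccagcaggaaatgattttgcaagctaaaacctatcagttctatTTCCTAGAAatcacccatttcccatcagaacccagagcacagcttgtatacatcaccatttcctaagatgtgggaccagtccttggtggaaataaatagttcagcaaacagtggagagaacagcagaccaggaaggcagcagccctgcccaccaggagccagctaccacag
Batf3: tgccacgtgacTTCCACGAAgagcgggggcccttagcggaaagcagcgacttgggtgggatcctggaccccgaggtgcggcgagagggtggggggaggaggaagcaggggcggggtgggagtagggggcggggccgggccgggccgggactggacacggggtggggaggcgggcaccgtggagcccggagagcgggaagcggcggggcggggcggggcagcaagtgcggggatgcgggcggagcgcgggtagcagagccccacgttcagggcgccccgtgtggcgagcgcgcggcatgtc
Smad3: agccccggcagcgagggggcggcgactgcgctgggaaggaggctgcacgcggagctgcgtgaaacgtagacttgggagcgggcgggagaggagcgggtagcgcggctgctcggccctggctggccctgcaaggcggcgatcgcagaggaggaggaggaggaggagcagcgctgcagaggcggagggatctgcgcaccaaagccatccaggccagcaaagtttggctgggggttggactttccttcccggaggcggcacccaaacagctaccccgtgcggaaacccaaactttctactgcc
Egr2: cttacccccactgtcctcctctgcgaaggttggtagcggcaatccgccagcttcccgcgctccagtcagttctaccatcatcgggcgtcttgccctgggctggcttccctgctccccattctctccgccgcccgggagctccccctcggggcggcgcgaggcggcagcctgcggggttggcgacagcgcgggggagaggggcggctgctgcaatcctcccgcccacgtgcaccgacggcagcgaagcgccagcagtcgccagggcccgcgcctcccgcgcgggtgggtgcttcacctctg

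Socs3 (chr11:117969317-117969616, minus strand) had 31 CpG and the match TTCTTAGAA starting 154 bases before the start. No M1 or M2 library called any of these 300 bases, and both M0 libraries covered all of them. Gbp7 (chr3:142530086-142530385, plus strand) had 8 CpG and 2 matches, TTCCAGGAA and TTCTCAGAA, at 106 and 87 bases before the start. Serpina3f (chr12:104214294-104214593, plus strand) had 0 CpG and TTCCTAGAA at 121 bases before. The Gbp7 and Serpina3f windows were 0% covered in both M1 and 100% in both M2 libraries. Batf3 (chr1:191098164-191098463, plus strand) had 34 CpG and TTCCACGAA at 239 bases before. The M2 regions of Batf3 began at 191098153 and 191098113, just outside the first printed base, and the M1 regions at 191096628 and 191096297. Smad3 (chr9:63757945-63758244, minus strand), with 25 CpG and no match, was covered in both M1 libraries and in neither M2 library. Egr2 (chr10:67535249-67535548, plus strand), with 32 CpG and no match, was fully covered in all 4 libraries.

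Such matches are common and are no sign of a bound factor. TTCNNNGAA, which reads the same on both strands, was in 1296 of 16456 promoters (7.88%), the form with 4 free bases in 1054 (6.40%), and either form in 13.6%. Among the 18 M2-only starts 4 held TTCNNNGAA (22.2%) and 0 the longer form. Among the 57 M1-only starts 5 held the first and 6 the second. A kappa B-like motif, GGG, any 5 bases, then CC on either strand, was in 57.4% of all promoters, in 10 of the 18 and in 28 of the 57. The median CpG number was 7 in M2-only and 6 in M1-only promoters, against 14 in all promoters and 16 in the 3159 covered in all 4 libraries.

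The longest state-only stretches were few and lay at Nos2 and near Trib2 for M2. The longest M2-only run was 19 kb inside Nos2 (78926001 to 78945000). The next was 12 kb on chromosome 12 (15676001 to 15688000), 104 kb from Trib2, followed by another 9 kb inside Nos2 (78946001 to 78955000). Runs of 6 kb lay on chromosome 11, 15.7 kb from Dppa1, and on chromosome 12 (15647001 to 15653000), 139 kb from Trib2. Trib2 encodes a pseudokinase that directs proteins to degradation. The 200 kb from 15600001 to 15800000, which end inside Trib2, had 38 and 2 kb called in WT M1 and 135 and 125 kb in WT M2. KO had 3 and 0 kb in M1 and 38 and 42 kb in M2, and M0 had 4 and 2 kb. WT M2 was thus the highest of all groups there, and M1 replicate 1 had as many kb as the lower KO M2 library. In the next 200 kb, up to 16000000, WT M1 had 156 and 150 kb, WT M2 191 and 187 kb, and the KO libraries of both states 113 to 158 kb. The Trib2 body was 77.8% and 50.4% covered in WT M1 and 100% in both WT M2 libraries.

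The longest M1-only runs were 11 kb in Pcp4, 8 kb in D430041D05Rik, 7 kb in Tmc7 and 6 kb each in Frmd5 and Cfap61. All 5 lay inside a gene. In KO M1 replicate 2 all 5 were 100% covered, and in KO M1 replicate 1 between 29.6% and 86.8%. In the KO M2 libraries they were between 0% and 70.8% covered. D430041D05Rik, Tmc7 and Frmd5 were 100% covered at the start in all 4 WT libraries, as was Pcp4, so these runs lay in the body of genes whose start kept the mark.

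A test of the signal in called regions gave no gene past the threshold. Only tags of called regions were counted, spread evenly over each region. Stretches outside a region counted as 0, so the measure also depends on called length. Normalised tags per kb of gene body, as log2(tags per kb + 1), were compared over 7000 genes under a region in at least 2 of the 4 libraries, with limma and Benjamini-Hochberg adjustment. At an adjusted p under 0.05, 0 genes (0%) were called, with 211 at an unadjusted p under 0.05, 61 higher and 150 lower in M2. The p-values measure only the spread between these cultures. The smallest adjusted p was 0.0731, that of Olfr9 (log2 difference -4.00 ± 0.13, SE), Olfr1447, Olfr314, 1700123K08Rik, Cstdc1 and Olfr985, all lower in M2. Their M2 values were 0, which means that no region was called over the body. Their M1 values lay between 7.33 and 14.7 tags per kb of body. The highest ranks towards M2 were Fem1al and Socs3 (both adjusted p = 0.0968), AA467197 (0.22), Mterf1a (0.249) and Nos2 (0.311).

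Nos2 had the largest log2 difference of the genes named here. Its body held 0.814 and 0 normalised tags per kb in M1 and 16.7 and 30.6 in M2, a log2 difference of 4.09 ± 0.39 (SE). Socs3 held 0 and 0 in M1 and 8.31 and 14.5 in M2, a log2 difference of 3.54 ± 0.18 (SE). AA467197, the host gene of miR-147, held 0 and 0 in M1 and 4.20 and 8.01 in M2, and KO libraries were 0% and 0% covered in M1 and 47.5% and 39.3% in M2. Egr2 held 25.2 and 21.9 in M1 and 7.55 and 11.6 in M2, a log2 difference of -1.32 ± 0.15 (SE, limma adjusted p = 0.408). At each of these 4 genes the M1 and M2 libraries did not overlap. The genes were chosen for a difference between these same libraries, so the lack of overlap adds no support. A value of 0 means no called region over the body, not an absence of tags. Genes at 0 in one state depend on the added 1, so their log2 differences are no bounds.

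**Figure D3:**
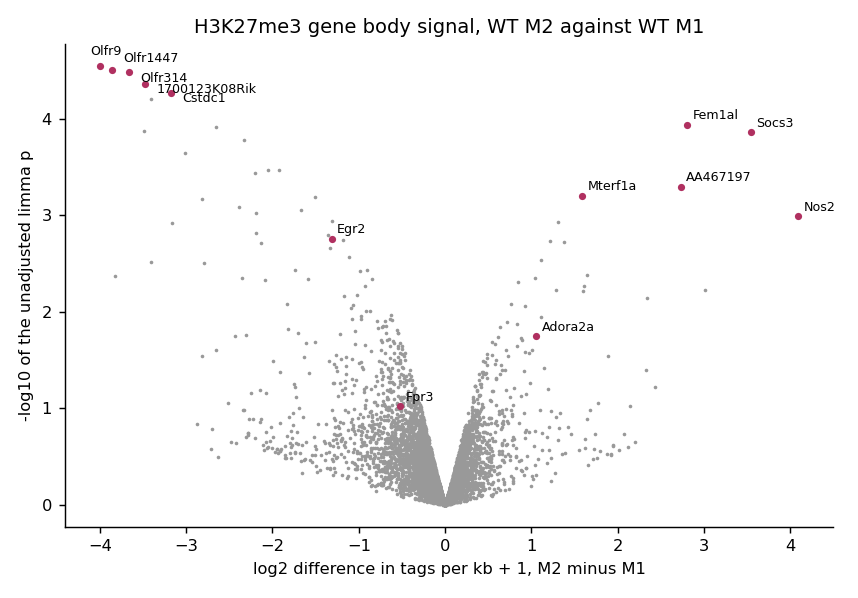
Log2 difference in normalised tags per kb of gene body plus 1 (M2 minus M1) against -log10 of the unadjusted limma p, for 7000 gene bodies, 1 point each. Named genes in red: Nos2 and Socs3 lie far to the right at 4.09 and 3.54, Olfr9 far to the left at -4.00, and no gene passed an adjusted p of 0.05.

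Regions that all 4 libraries called gave no call. Of 43043 merged regions, 1630 were at least 80% called in every library, with a median width of 29.6 kb. limma with Benjamini-Hochberg adjustment called 0 of them (0%), with 45 at an unadjusted p under 0.05 and a smallest adjusted p of 0.998. The median size of the log2 difference was 0.08 and the largest 0.59. Without M1 replicate 1, 5 of 1887 regions passed, 3 higher and 2 lower in M2. The 3 higher were narrow regions on chromosomes 8, 5 (in Cdk8) and 13 (in Jarid2), and the 2 lower lay on chromosome 4 over the interferon-alpha genes Ifna9, Ifna12, Ifna14 and Ifna15, near-identical copies whose reads are uncertain. That fit assumes that the lone M1 library varies like the M2 libraries.

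The kb that separated the states in WT were then read in KO macrophages, which had no part in choosing them. Of the 4257 M2-only kb, KO M2 libraries called 57.7% and 44.6% and KO M1 libraries 34.6% and 41.4%. Of the 7140 M1-only kb, KO M1 libraries called 48.9% and 61.8% and KO M2 libraries 44.03% and 30.1%. In both sets the KO libraries did not overlap and differed in the WT direction, by 13.2 percentage points for the M2-only and -18.3 for the M1-only kb (M2 minus M1). An exact two-sided permutation test gave p = 0.333 for each, the smallest that 2 against 2 allow. Over all kb called in WT the KO M2 libraries called 71.6% and 63.0% and the KO M1 libraries 67.5% and 71.9%, which overlap. Of the M2-only kb, 12.8% were called in both KO M2 and no KO M1 library, against 3.77% of all called kb. Of the M1-only kb, 14.9% were called in both KO M1 and no KO M2 library, against 5.07%. In the opposite direction the shares were 4.51% of the M2-only kb against 5.07%, and 3.84% of the M1-only kb against 3.77%. This background includes the kb called in all 4 WT libraries, of which the KO libraries called 88.9% to 97.0%. Such kb can seldom separate the KO states, which lowers the background. Both M0 libraries called less of either set, 20.2% and 26.9% of the M2-only and 16.9% and 22.8% of the M1-only kb, with 1 library a genotype. They also called less of all kb called in WT, at 45.3% and 49.7%.

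**Figure D4:**
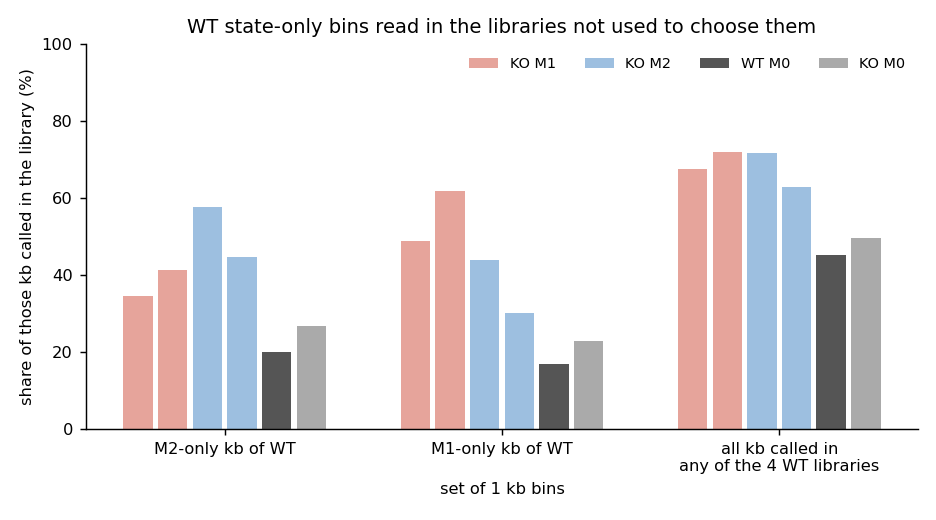
Share of 3 sets of 1 kb bins that each KO and M0 library called, in percent; each bar is 1 library. KO M2 bars (44.6% and 57.7%) stand above KO M1 bars (34.6% and 41.4%) for the M2-only kb of WT, the order is reversed for the M1-only kb, and both states overlap over all called kb.

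Single genes were read back in the same way. Of the 10 M2-only genes, 7 had non-overlapping KO libraries with M2 above M1, 0 the opposite and 3 overlapped. The lowest KO M2 library exceeded the highest KO M1 library by 77.9 points at Nos2 and 68.9 at Socs3. At Hapln3, Mtnr1b, Zmynd12, Tekt5 and Ptprn it did so by only 6.50, 5.81, 3.14, 0.960 and 0.372 points. Among all 7596 genes with any cover, 27.9% had KO M2 above KO M1 without overlap and 15.2% the reverse. Of the 42 M1-only genes, 17 had KO M1 above KO M2, 7 the reverse and 18 overlapped. In M0, 5 of the 10 M2-only and 13 of the 42 M1-only bodies (31.0%) were covered in both libraries, against 71.4% of the 3643 covered genes. Nos2 and Socs3 belonged to the 5 covered in M0, as did Rxfp4, a relaxin family receptor gene.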

How the data were processed

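Bowtie2 2.4.2, SAMtools 1.10 and HOMER 4.8 are named with the mm10 build, per the submitters' processing notes. Per the file headers, the authors called regions in each library alone, without input, with HOMER findPeaks (region mode, peak size 1000 bp, minimum distance 2500 bp, FDR 0.001). The signal column deposited by the authors holds tags scaled to 10 megatags. The score column deposited by the authors was used only to rank regions within a library.

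From these files, 1 kb bins and gene bodies were called covered at 50% of their length. Gene positions came from RefSeq on GRCm38.p6: 20661 autosomal protein-coding genes, 16456 of them with a start site and a window of 1 kb either side. The position of regions in exons, introns or untranslated parts was not analysed here. Signal was compared with limma 3.58.1 in R 4.3.3 on log2(tags per kb + 1), after median-ratio scaling over shared regions, on the 4 WT libraries without a block. Only tags of called regions entered it, spread evenly over each region. The deposited tables of differential regions were not used here.

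Tags behind a region set its precision, and regions are called or not at a threshold, so a region called in 1 library and not in another shows a difference in calls rather than in amount. The genes named are, per direction, the 10 called bodies with the largest gap between states, genes of 4 response and receptor lists with a gap of 20 points in body or start window, the 5 of lowest limma p, and genes in the 5 longest runs, plus genes named after their values were seen. The members, lists and tests were chosen with earlier results of these data known. Covered length was tested on simulated regions (300 of 300 matched). In a simulation of the gene test with the measured spread over 7000 genes, limma recovered 43 of 100 genes changed by 2 and 65 of 100 changed by 4 on the log2 scale, with 7 false calls. Tried alternatives were other cover thresholds, higher-scoring regions, scaling, pseudocount 5, filters, a replicate block and leaving out each library.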

Additional observations from a re-analysis of the deposited data

Results flagged for a closer look

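Several named genes differed between the states in opposite directions in WT and in KO, without overlap of libraries between states. Some of the gaps were small, and the difference between genotypes was not tested. Body cover in M2 minus M1, in percentage points, was -32.2 in WT and 48.4 in KO for Il13, -100 and 50.3 for Olfr314, -48.3 and 37.01 for H2-M10.5, -71.2 and 82.7 for 1700123K08Rik, 46.1 and -29.4 for Chil4, 26.6 and -29.5 for Cmtm2b, and 1.66 and -0.246 for Vopp1. Cover of the start window gave -81.1 in WT and 28.4 in KO for Olfr314, -62.2 and 100 for Krt5, -36.5 and 30.1 for Bpifa6, -44.3 and 100 for 1700123K08Rik, and 62.9 and -2.15 for Vopp1. At Vopp1 the start window was 0% covered in both WT M1 libraries and 62.5% to 65.2% in the other 8 libraries.

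The X chromosome, outside the comparison, had 31.3 Mb under regions in WT M1 replicate 1 and 52.9 Mb in WT M2 replicate 1. The highest of the 8 other libraries had 0.990 Mb.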

How the results depend on the processing

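The covered-length difference between states had no stable sign: it was -13.5 Mb with all libraries, -49.04 to 22.01 Mb when single libraries were left out (22.01 without M2 replicate 1), and 10.02 Mb without replicate 1 of either state, an alternative chosen after seeing the data. Counts of called kb and genes grew whenever fewer libraries had to agree, which follows from the rule. Leaving out single libraries gave 10667 to 32641 M2-only and 11189 to 36880 M1-only kb, and 25 to 290 M2-only and 58 to 486 M1-only genes. Leaving out both replicate 1 libraries gave 51851 and 41859 kb and 450 and 187 genes. The regions of higher score gave 11733 and 11956 kb and 126 and 161 genes. With no overlap allowed in the other state there were 2421 and 4122 kb. M2-only genes numbered 21 at 25% of the body and 18 by start window, and M1-only genes 26 at 75%. Body differences of named genes that turned did so with the regions of higher score, at Egr2 (1.50), Zmynd12 (-0.0767), D430041D05Rik (3.76) and Frmd5 (11.5), and with 2 kb added on either side at Batf3 (-7.95). With the regions of higher score the difference was 0 at Socs3, Rxfp4, Olfr1447 and Cstdc1. limma with Benjamini-Hochberg adjustment called 0 genes under every alternative run, with smallest adjusted p from 0.0586 (quantile normalisation) to 1. It called 0 shared regions under every alternative except without M1 replicate 1 (3 higher, 2 lower), so leaving out libraries gave 0 to 3 higher and 0 to 2 lower. The replicate block gave 0 genes (smallest adjusted p 0.671) and 0 regions (0.0767). The labels do not tie equal replicate numbers to one animal, and the number 1 minus number 2 differences of M1 and M2 correlated at 0.174 over genes and -0.0789 over regions. The planned edgeR test was not run, because the recovered tags were not whole counts.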
